A study of Mus musculus with 15 samples.

Results

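The endothelial nuclei of punches enriched for the mouse dorsal hippocampal formation (dHF) are described here, across 15 adult female mice and 3 reproductive histories. They were chosen by counts of unique molecular identifiers (UMIs, the counted RNA molecules). A nucleus was taken when it had at least 400 detected genes, at least 4 UMIs of Flt1, at least 2 UMIs of Cldn5, Slco1a4 and Adgrl4 together, none of Gad1 or Gad2, and at most 1 of Slc17a7. This rule found 845 nuclei among 134019 barcodes, of which 133986 had at least 400 genes. The nuclei per mouse ranged from 16 to 146, and in all 336 came from nulliparous (NP) mice, 291 from control RE mice and 218 from stress RE mice.

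The study asked whether reproductive experience (RE) leaves lasting traces in the maternal brain, and whether stress in the postpartum period alters them. The 6 NP mice were age-matched virgins. The 4 control RE mice were bred, gave birth and nursed their pups until weaning. The 5 stress RE mice did so too, but were given limited nesting and daily separation from the litter in the second part of lactation. Nuclei were isolated on a sucrose gradient from punches of dHF and sequenced from the 3′ end of the transcripts by a droplet method, 1 library per mouse. The study states that these punches also took in parts of cortex, thalamus and ventral hippocampus. The rule does not tell from which region a nucleus came. The labels place the libraries in 3 batches without saying what a batch is, and batch 1, with 3 mice, held no control RE mouse.

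Endothelial cells line the blood vessels. In the brain they form the blood-brain barrier: tight junctions seal the gaps between neighbouring cells, vesicle traffic across the cell is kept low, nutrients enter through solute carriers and receptors, and efflux pumps return many compounds to the blood. Wnt signals from the surrounding tissue maintain this state, and the cells differ along the vessel tree from arteries through capillaries to veins. They are also the first brain cells to meet circulating hormones, among them the sex steroids, prolactin and the glucocorticoids of the stress response.

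The promoters of the 4 genes that chose the nuclei, and of the efflux pump gene Abcb1a and the angiopoietin receptor gene Tie1, are shown because they belong to the genes that set these nuclei apart. Each sequence is the 250 bases before the transcription start in RefSeq (GRCm38.p6), written 5′ to 3′ on the strand of the gene. Capitals mark AGGAAG or its reverse complement CTTCCT, a short sequence that contains the core bound by ETS factors such as Erg and Fli1. The intervals are chr5:147726012-147726261 for Flt1 (minus strand), chr16:18776597-18776846 for Cldn5 (plus), chr6:141856221-141856470 for Slco1a4 (minus), chr3:151437632-151437881 for Adgrl4 (plus), chr5:8566841-8567090 for Abcb1a (plus) and chr4:118489850-118490099 for Tie1 (minus).
Flt1: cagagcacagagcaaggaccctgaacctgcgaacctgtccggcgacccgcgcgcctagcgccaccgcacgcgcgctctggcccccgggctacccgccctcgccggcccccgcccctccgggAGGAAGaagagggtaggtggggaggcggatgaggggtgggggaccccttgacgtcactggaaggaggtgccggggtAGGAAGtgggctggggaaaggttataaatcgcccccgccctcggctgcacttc
Cldn5: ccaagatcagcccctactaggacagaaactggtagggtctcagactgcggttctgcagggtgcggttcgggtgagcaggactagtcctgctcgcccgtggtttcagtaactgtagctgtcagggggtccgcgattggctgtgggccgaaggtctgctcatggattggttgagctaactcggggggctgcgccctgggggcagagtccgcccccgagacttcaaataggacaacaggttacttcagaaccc
Slco1a4: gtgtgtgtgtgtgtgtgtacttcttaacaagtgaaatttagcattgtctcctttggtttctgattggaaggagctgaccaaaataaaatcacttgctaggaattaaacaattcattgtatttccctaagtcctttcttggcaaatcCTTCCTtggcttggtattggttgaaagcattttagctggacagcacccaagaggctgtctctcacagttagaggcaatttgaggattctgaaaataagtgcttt
Adgrl4: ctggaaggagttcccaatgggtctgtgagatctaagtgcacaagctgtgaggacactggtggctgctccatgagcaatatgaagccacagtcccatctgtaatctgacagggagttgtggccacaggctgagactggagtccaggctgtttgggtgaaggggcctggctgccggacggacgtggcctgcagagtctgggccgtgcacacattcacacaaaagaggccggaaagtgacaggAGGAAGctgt
Abcb1a: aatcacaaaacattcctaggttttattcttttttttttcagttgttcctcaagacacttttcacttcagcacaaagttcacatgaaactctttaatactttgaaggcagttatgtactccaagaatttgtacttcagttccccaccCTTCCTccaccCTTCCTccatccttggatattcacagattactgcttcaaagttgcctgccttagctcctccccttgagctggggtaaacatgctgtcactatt
Tie1: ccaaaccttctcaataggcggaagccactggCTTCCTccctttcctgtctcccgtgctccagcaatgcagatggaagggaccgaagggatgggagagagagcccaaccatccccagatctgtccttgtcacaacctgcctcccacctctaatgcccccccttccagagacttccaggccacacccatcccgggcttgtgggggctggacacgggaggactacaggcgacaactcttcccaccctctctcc

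The match lay 129 and 53 bases before the start in Flt1, 104 bases before it in Slco1a4, 10 in Adgrl4, 104 and 93 in Abcb1a, and 219 in Tie1, and there was none in the Cldn5 window. Among the 30 genes with the highest ratio of endothelial level to the level in any other class, 22 had a promoter in RefSeq, and AGGAAG occurred on either strand in 13 of these (59.1%). Over all 27025 genes with a promoter the share was 32.3%. For CAGGAAG, which contains AGGAAG, the shares were 31.8% and 12.1%. For GGAAGT they were 22.7% and 22.2%, and for CGGAAG 9.09% and 15.3%, and both can overlap AGGAAG in the letters GGAAG. A match describes the letters in the window and is not a bound site.

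The levels of endothelial genes are given first for the genes of the rule and then for genes it did not use. Levels are CPM, the count scaled to a common total of all UMIs of a mouse's endothelial nuclei, given as mean ± SD over 15 mice, and are compared between classes of nuclei for 1 gene at a time. For comparison, 7 other classes were taken by a minimum count of UMIs of their own genes, with at most 1 Flt1 UMI. All but the excitatory neurons also needed a minimum share of such UMIs. The classes held 441 mural nuclei (pericytes and smooth muscle), 1257 vascular leptomeningeal, 5135 microglial, 11585 astrocytic, 31379 oligodendrocytic, 12700 excitatory neuronal and 874 choroid plexus nuclei, the last with as few as 5 in a mouse. All 16 genes of the endothelial marker list were highest in the endothelial nuclei, but the list includes genes of the rule, and the limit on Flt1 in the other classes bears on it too. As the nuclei were chosen on these counts, all levels are a description and were not tested.

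The genes of the rule had 3587 ± 753 CPM for Flt1, a VEGF receptor, 2501 ± 601 for the organic anion carrier Slco1a4, 1636 ± 364 for the adhesion receptor Adgrl4 and 360.3 ± 131 for the tight junction protein Cldn5. The highest level in another class was 120.5 CPM for Flt1 in mural nuclei, 261 for Slco1a4 in choroid plexus, 2.47 for Adgrl4 in vascular leptomeningeal and 3.53 for Cldn5 in mural nuclei. The endothelial nuclei held 71.4% of all Flt1 UMIs of the punches, 70.6% of those of Adgrl4, 60.1% of Cldn5 and 58.6% of Slco1a4.

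Of the genes the rule did not use, Sox17, an endothelial transcription factor of arteries, had 131 ± 39.5 CPM against 0.228 or less elsewhere. The ETS factor Erg had 303 ± 98.3 CPM against 4.03, and Tie1 154 ± 74.6 against 3.07. Vwf, the clotting factor stored in endothelial granules, had 593 ± 309.5 CPM against 2.82, and Ptprb, the phosphatase that restrains the angiopoietin receptor, 1670.2 ± 447 against 16.8. The 30 leading genes were picked by their ratio to the other classes in these same mice and include Adgrl4 and Cldn5 of the rule. That 28 of them were above every other class in all 15 mice follows largely from this choice. The exceptions were the arterial genes Bmx (14 mice) and Gkn3 (13 mice).

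**Figure D1:**
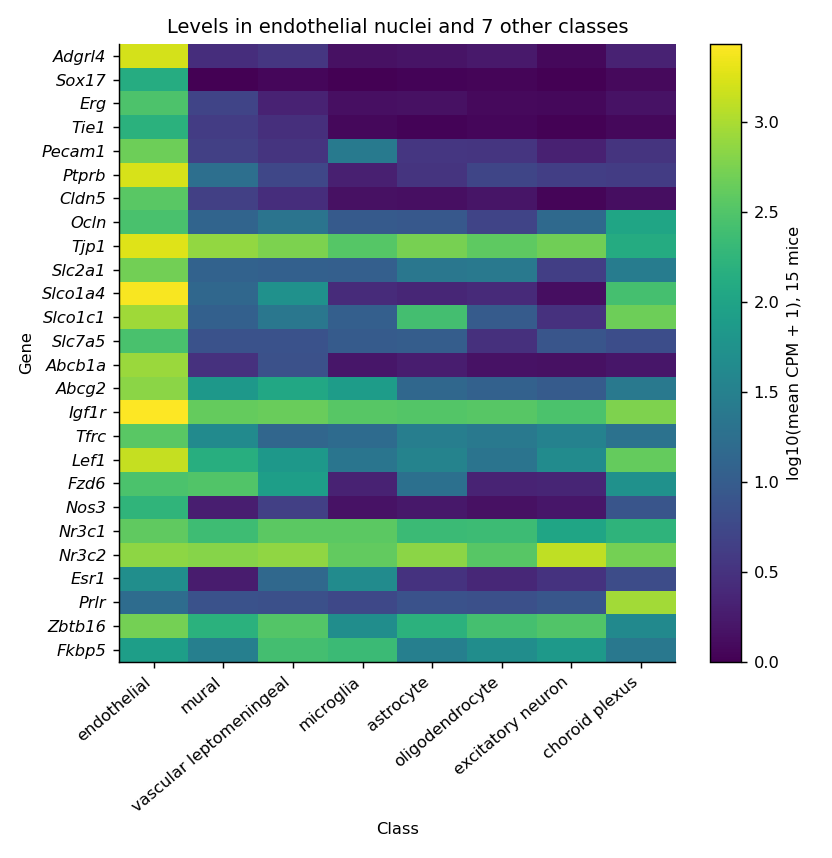
Mean level over 15 mice in the endothelial nuclei and in 7 other classes (columns) for 26 genes of the barrier, of signalling and of hormone response (rows); colour is log10(mean CPM + 1). The first 7 genes (Adgrl4 to Cldn5) are bright in the endothelial column and darker in the others, whereas Nr3c1, Nr3c2 and Tjp1 are expressed in every class and Prlr is brightest in choroid plexus.

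The members of the rule had an edge. The 93 nuclei with exactly 4 Flt1 UMIs held 0.373% of their UMIs in 10 endothelial genes outside the rule, close to the 0.391% of the 74 barcodes left out with 3 Flt1 UMIs, and the 752 nuclei with 5 or more held 0.589%. A further 125 barcodes that passed on Flt1 and the partner genes were left out for a Gad1 or Gad2 UMI (0.275%) and 28 for 2 or more Slc17a7 UMIs (0.105%). The median endothelial nucleus of a mouse had 1493 to 4196 UMIs, less than the 3993 to 8754 UMIs of the median barcode of the same libraries, whose totals ran from 40602582 to 96211264 UMIs. Of the 845 barcode sequences, 33 also occurred in another library, and none was endothelial in both.

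Free RNA and mixed nuclei were present. A UMI of the synaptic gene Syt1 was found in 75% of endothelial nuclei, 73.9% of mural and 74.3% of oligodendrocytic nuclei, at median depths of 2470, 1816 and 2584.5 UMIs, so that share is read as background. For Abcb1a, a gene the rule did not use, the shares were 78.6% of endothelial nuclei, 0.454% of mural and 0.133% of oligodendrocytic nuclei. After every nucleus had been thinned to 1000 UMIs, which left 831 endothelial nuclei, the Abcb1a share was 52.9% in endothelial and 0.491% in mural nuclei. The neuron marker list summed to 11270 CPM in endothelial nuclei, near the 10353 CPM of mural and 9807 CPM of vascular leptomeningeal nuclei, and to 44571 CPM in excitatory neurons.

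Genes of the barrier differed in how far they were particular to endothelial nuclei. Counts of list genes highest in endothelial nuclei include any gene of the rule on the list, such as Flt1 among the VEGF genes. For such a gene a high rank was set in advance. Of 24 solute carriers of the barrier, 17 were higher in endothelial nuclei than in every other class. The taurine carrier Slc6a6 had 1228 ± 316 CPM against 174 in microglia, the thyroid hormone carrier Slco1c1 871 ± 355 against 477 in choroid plexus, the zinc carrier Slc39a10 657 ± 272 against 54.7, the glucose carrier Slc2a1 501 ± 163 against 26.8, and the large neutral amino acid carrier Slc7a5 279 ± 108 against 9.45. Of 9 efflux pumps only 4 were highest here, but 3 of them by a wide margin: Abcb1a, encoding P-glycoprotein, at 839 ± 214 CPM against 6.11, Abcg2 at 693 ± 179.7 against 114 and Abcc4 at 875 ± 175 against 141.

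Tight and adherens junction genes were less restricted than the solute carriers, and 11 of 21 were highest in endothelial nuclei. Tjp1, the scaffold of the tight junction, had 1851 ± 292 CPM against 753 in mural nuclei, Ocln 279.7 ± 80.4 against 105 in choroid plexus, and Cdh5, the cadherin of endothelial contacts, 159 ± 44.3, with vascular leptomeningeal nuclei next. Cldn3 had no UMI. Of 10 genes of caveolae and transcytosis, 8 were highest here, led by Cav1 with 181 ± 55.2 CPM against 14.2. Among 12 receptors for the transport of proteins and lipids, 5 were highest, including the IGF receptor Igf1r (2729.5 ± 659 against 599), Bsg (674 ± 324 against 208), the insulin receptor Insr (497 ± 107 against 274) and the transferrin receptor Tfrc (357 ± 153 against 42.9).

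Genes of signalling and transcription were also often highest here. Of 28 genes of VEGF, angiopoietin and BMP signalling, 18 were highest in endothelial nuclei, among them the angiopoietin receptor Tek at 660.3 ± 179.6 CPM, 57.2 times its level in choroid plexus, and Bmpr2 at 776 ± 176 against 256, whereas the co-receptor Nrp1 (463 ± 208) was matched by excitatory neurons (481). Of 18 Wnt and beta-catenin genes, 12 were highest, with the nuclear effector Lef1 at 1369 ± 319 CPM against 414 in choroid plexus. Of 29 endothelial transcription factors, 21 were highest. Fli1 had 1096 ± 344 CPM against 957 in microglia, and Epas1, which responds to low oxygen, 855 ± 179 against 329 in mural nuclei. Of 13 Notch and ephrin genes 6, of 17 vascular tone genes 8, of 17 haemostasis and glycocalyx genes 10 and of 20 basement membrane and integrin genes 5 were highest here, and of the last list the sum was higher in mural nuclei (3569 against 2623 CPM).

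Of 27 genes of leukocyte adhesion and inflammation, 14 were highest in endothelial nuclei. The interleukin-1 receptor Il1r1 led with 523 ± 382 CPM against 70.9. The leukocyte-binding selectins Sele and Selp and the chemokine Ccl2, which inflamed vessels express, had no UMI in the endothelial nuclei of any mouse. A count of 0 allows up to 3 UMIs, so low levels were not detectable at this depth.

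Hormone receptors varied in how far they were shared with other classes, and only 3 of 14 were highest in endothelial nuclei. The glucocorticoid receptor Nr3c1 had 391 ± 129 CPM, near the 367 of vascular leptomeningeal nuclei, and the mineralocorticoid receptor Nr3c2 717 ± 115, below the 1297 of excitatory neurons. The growth hormone receptor Ghr had 322 ± 83.8 CPM against 618 in vascular leptomeningeal nuclei. The oestrogen receptor Esr1 had 49.4 ± 32.7 CPM, with 44.2 in microglia as the next, and a UMI of it was seen in 11.4% of endothelial against 0.227% of mural and 0.333% of oligodendrocytic nuclei, or 4.81, 0 and 0.101% after thinning. The prolactin receptor Prlr had 15.5 ± 31.3 CPM, against 918 in choroid plexus, and the progesterone receptor Pgr 8.95 ± 5.29. Esr2 had 3 UMIs and the oxytocin receptor Oxtr 1 UMI over all mice, and the vitamin D receptor Vdr none.

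The nuclei fell into 11 sub-clusters, made with no alignment of the libraries to one another. Some of these were led by genes of a position in the vessel tree. Of 845 nuclei, 296 were in 2 capillary-like sub-clusters, 186 in a venous-like, 96 in an arterial-like and 31 in a fenestrated-like sub-cluster, 91 in 1 sub-cluster without a name, and 145 (17.2%) in 5 sub-clusters led by genes of another cell type. The arterial-like sub-cluster was led by Fbln5, Gkn3, Mgp, Bmx and the elastin gene Eln, and its summed arterial list was 8230 CPM against 532 in the other nuclei. The venous-like one was led by Adgrg6, Tll1, Vwf, Il1r1 and Nrp2 (venous list 7416 against 1408 CPM). Of the capillary-like ones, the first (207 nuclei) was led by Slc26a10, Hmcn1 and the secreted Wnt antagonist Notum, and the other (89 nuclei) had the lipid carrier Mfsd2a and the chemokine Cxcl12 among its leading genes (capillary list 3543 against 1575 and 4940 against 1703 CPM). The fenestrated-like sub-cluster carried Plvap, the protein of fenestral diaphragms, with Car8, Exoc3l2 and Igfbp3, and its fenestrated list summed to 5140 against 434 CPM. The unnamed sub-cluster was led by Dpp4, Lmntd1, Ndnf, Nkd1, Slc22a8 and Tfrc.

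**Figure D2:**
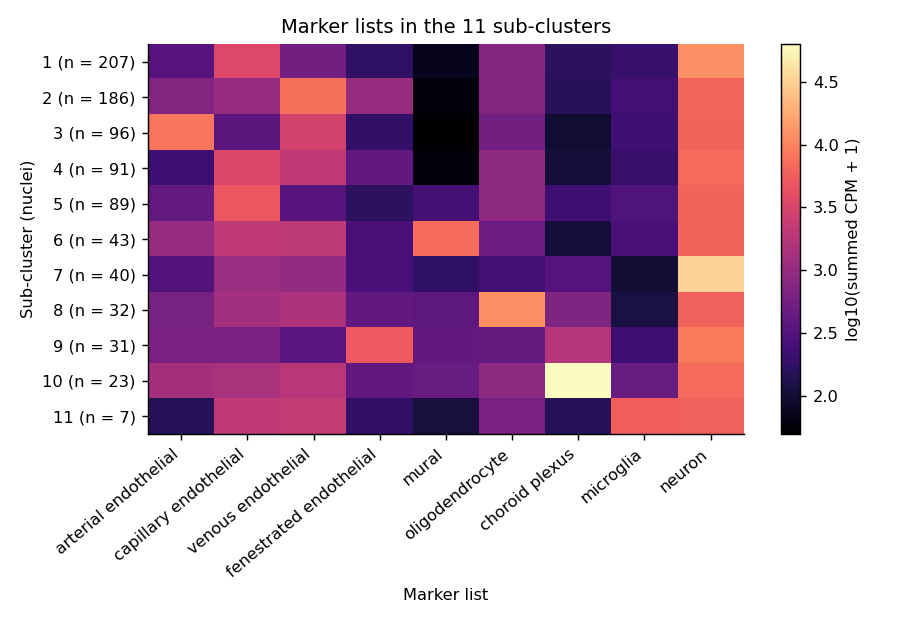
Summed level of 9 marker lists (columns) in the 11 sub-clusters of endothelial nuclei (rows, with the number of nuclei); colour is log10(summed CPM + 1). Arterial genes are brightest in sub-cluster 3, venous genes in 2, fenestrated genes in 9, and sub-clusters 6, 7, 8, 10 and 11 hold mural, neuronal, oligodendrocytic, choroid plexus and microglial genes.

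The sub-clusters led by other cell types held mural genes (43 nuclei, Vtn and Atp13a5), neuronal and oligodendrocyte precursor genes (40 nuclei, median 9366.5 UMIs), oligodendrocyte genes (32 nuclei, Mbp and Mag), choroid plexus genes (23 nuclei, Ttr and Folr1) and microglial genes (7 nuclei, Csf1r and P2ry12). Of these 145 mixed nuclei, 53 had a high doublet score from Scrublet, against 3 of the 700 others. Mixed nuclei were 13.9 ± 7.29% of a mouse's endothelial nuclei of the NP group (SD, n = 6), 25.0 ± 7.65% of control RE (n = 4) and 18.2 ± 6.89% of stress RE (n = 5). In stress RE mouse 75, the choroid plexus list summed to 31399 CPM, against 942 or less in the other 14 mice, beside 6 choroid-led nuclei there.

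Among the 700 unmixed nuclei, the share of each vessel type varied widely between mice of 1 group. Arterial-like nuclei were 0, 5.56, 12.1, 14.3, 23.6 and 25.8% in the 6 NP mice, 8.33, 14.6, 15.4 and 22.2% in control RE, and 0, 3.51, 4.00, 8.70 and 17.1% in stress RE, with means of 13.6 ± 10.0, 15.1 ± 5.68 and 6.67 ± 6.62%. The ranges of all 3 groups overlapped. Venous-like nuclei averaged 24.8 ± 16.0, 23.3 ± 8.98 and 16.9 ± 3.42%, and capillary-like nuclei 50.0 ± 27.1, 41.3 ± 8.81 and 53.4 ± 9.64%. NP mouse 37 stood at the end of the NP range, with 49.4% venous-like and 10.1% capillary-like nuclei of 89. The smaller capillary-like sub-cluster came mostly from stress RE mice, with 56 of its 89 nuclei, of which 29 were from mouse 75, and its median depth was 1493 UMIs, 0.279 of the median of the same libraries. The larger capillary-like sub-cluster held 0 nuclei of mouse 75 and 0 of NP mouse 37. The part of library and depth in this split was not tested. The shares of vessel types come from clusters of the same counts and were not tested between groups.

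**Figure D3:**
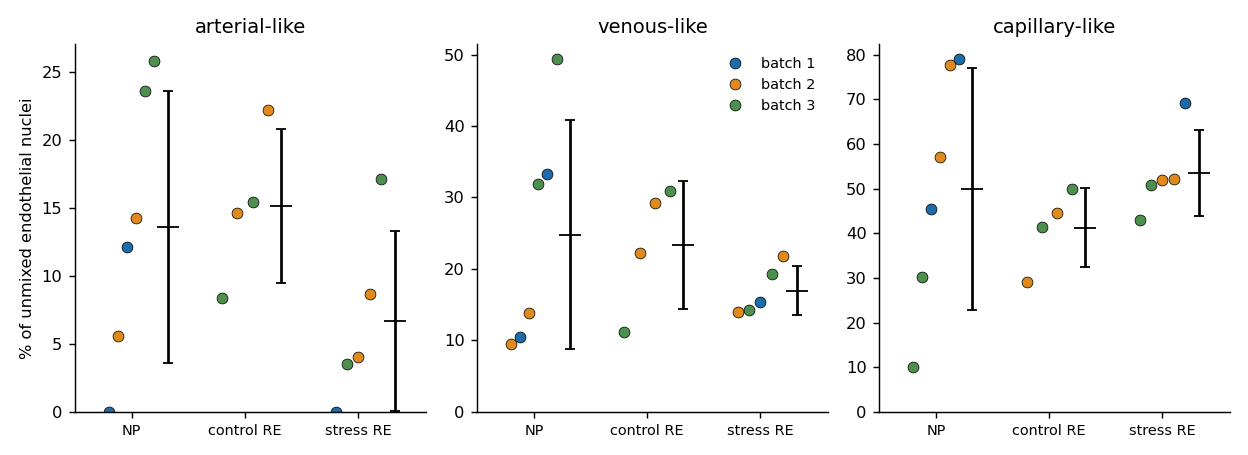
Share of arterial-like, venous-like and capillary-like nuclei among the unmixed endothelial nuclei of each mouse (points, in %, coloured by batch), with the mean and SD of each group (bars). The ranges of the 3 groups overlap in each panel, and NP mice spread most, from 10.1 to 78.9% for capillary-like nuclei.

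The share of endothelial nuclei among the barcodes with at least 400 genes did not differ beyond the spread between mice. It was 0.275, 0.384, 0.464, 0.987, 1.16 and 1.20% in the NP mice, 0.219, 0.521, 0.651 and 1.26% in the control RE mice, and 0.276, 0.329, 0.473, 0.589 and 0.675% in stress RE. The ranges of the 3 groups overlapped, with no stress RE mouse above 0.675%, and the 95% Wilson interval of the lowest mouse, control RE mouse 88, ran from 0.146 to 0.328%, that of the highest, control RE mouse 87, from 1.07 to 1.48%. Such intervals cover counting error only. The means were 0.745 ± 0.417 (SD, n = 6), 0.663 ± 0.438 (n = 4) and 0.469 ± 0.168% (n = 5).

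By two-sided exact permutation tests over mice, with p-values adjusted over the 3 comparisons, control RE differed from NP by -0.0824 percentage points (p = 0.810, adjusted p = 0.810), stress RE from control RE by -0.194 (p = 0.468, adjusted p = 0.702) and stress RE from NP by -0.276 (p = 0.197, adjusted p = 0.591). The 95% intervals from the same tests were -0.745 to 0.575, -0.700 to 0.255 and -0.765 to 0.205, which reach differences as large as the mean shares themselves. Within batch 2 all 3 differences were positive (0.0651, 0.0673 and 0.132), and within batch 3 all were negative (-0.204, -0.359 and -0.563), with 2 mice a group. In batch 1 the difference of stress RE from NP was -0.495, with 1 mouse against 2.

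Shares of other vessel-associated nuclei were set against the endothelial share over the 15 mice, with 100000 permutations and adjustment over 3 relations. The mural share gave r = 0.452 (p = 0.0903, adjusted p = 0.271) and rho = 0.464 (p = 0.0825, adjusted p = 0.247), and r = 0.658 without the 2 mice farthest from the median endothelial share, control RE mouse 87 and NP mouse 37. Within batch 2 r was 0.602, and within batch 3 it had the opposite sign, at -0.537 (n = 6 each), and batch 1 held too few mice. The minimum share of UMIs of the mural nuclei was added after the data were seen. By a minimum count alone, the earlier setting, r was 0.675 with an adjusted permutation p of 0.0175, 0.549 within batch 2 and 0.273 within batch 3. The vascular leptomeningeal share gave r = 0.198 (permutation p = 0.475, adjusted p = 0.712), rho = 0.0214 (p = 0.944) and r = 0.0924 without those mice, and the choroid plexus share r = 0.0471 (p = 0.869, adjusted p = 0.869), rho = 0.264 (p = 0.340) and r = 0.324 without them. All shares have the same denominator.

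**Figure D4:**
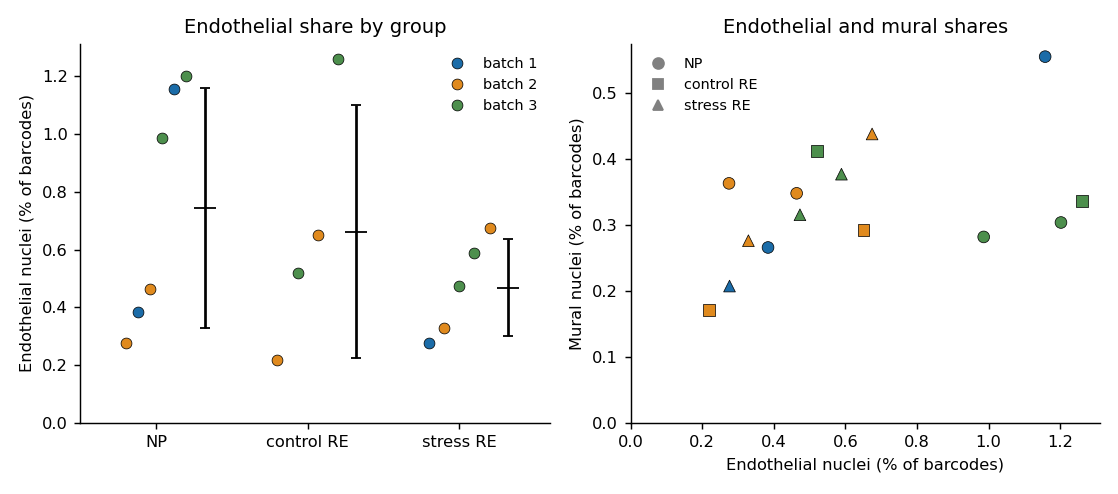
Left, endothelial nuclei as % of barcodes with at least 400 genes in each mouse (points, coloured by batch) with the group mean and SD (bars). Right, mural against endothelial nuclei, both as % of barcodes, by group (shape) and batch (colour). The groups overlap, and the 3 mice at 1.16% or more belong to NP and control RE.

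No gene passed the threshold in endothelial nuclei between any pair of groups. UMIs were summed over the endothelial nuclei of each mouse (51443 to 504086 per mouse), and 3532 genes were tested with edgeR's quasi-likelihood test and Benjamini-Hochberg adjustment. At an adjusted p under 0.05, 0 genes (0.0%) were called in control RE against NP, 0 (0.0%) in stress RE against control RE and 0 (0.0%) in stress RE against NP. At an unadjusted p under 0.05, edgeR gave 119 (3.37%), 265 (7.5%) and 269 (7.62%) genes. Without stress RE mouse 90 the last 2 counts were 513 and 506, and without control RE mouse 72 the count for stress RE against control RE was 171. DESeq2 called 0 (0.0%), 2 (0.0567%) and 3 (0.085%) genes after adjustment. The CPM of the 2 groups did not overlap for 37 genes (1.05%), 84 (2.38%) and 24 (0.68%). The median log2 fold change over all tested genes was -0.01, 0.04 and 0.03. Mitochondrial UMIs were on average 0.194% of the endothelial UMIs of NP mice, 0.263% of those of control RE and 0.383% of those of stress RE mice (0.770% in mouse 75), and their part in any difference was not tested. The first and last comparison share the NP mice, the last 2 the stress RE mice, and the first 2 the control RE mice.

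Zbtb16 shared with Dab1 the smallest adjusted p between control RE and stress RE, and its levels in these did not overlap. Zbtb16 (chr9:48654297-48836222, minus strand, GRCm38) encodes a zinc finger repressor and is induced by glucocorticoids. Its endothelial level was 605, 652, 881 and 1250.3 CPM in the 4 control RE mice and 212, 235, 265, 272 and 381 CPM in the 5 stress RE mice. Every control RE mouse was above every stress RE mouse. The NP mice had 171, 466, 541, 627, 673 and 678 CPM and spanned the stress RE range, while 2 of the control RE mice lay above every NP mouse. The log2 fold change of stress RE against control RE was -1.56 ± 0.33 (SE, n = 5 and 4), with an adjusted p of 0.224 from edgeR, and DESeq2 called the gene. With any 1 mouse left out the log2 fold change ran from -1.77 to -1.35. Control RE was above NP by 0.67 and stress RE below NP by 0.89 on the log2 scale, and neither difference passed the threshold.

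Zbtb16 was also lower in stress RE than in control RE mice in 4 other classes, given here without a test. In mural nuclei control RE ranged from 164 to 359.8 CPM and stress RE from 0 to 117, in vascular leptomeningeal nuclei from 365 to 647 and 155 to 275, in oligodendrocytic nuclei from 258 to 511 and 109 to 228, and in microglia from 51.4 to 83.2 and 27.4 to 40.4. None of these ranges overlapped, and the share of all genes without overlap in these classes is not given here. The classes come from the same libraries, in which free RNA was present, so they are not independent of one another. The mural class held 12 to 48 nuclei a mouse. In astrocytes (179 to 256 and 71.9 to 179) the ranges met, and in excitatory neurons (293 to 376 and 191 to 413) and choroid plexus (9.54 to 39.4 and 24.2 to 59.0) they overlapped, and the choroid plexus mean was higher in stress RE (41.2 against 21.4 CPM).

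Fkbp5 (chr17:28399094-28517527, minus strand), the co-chaperone that dampens the glucocorticoid receptor and is induced by it, was likewise higher in control RE than in stress RE mice. It had 110.4, 111, 125 and 195 CPM in control RE, 26.5, 39.1, 70.7, 87.5 and 97.2 in stress RE, and 42.9 to 109.6 in NP (median 63.5). Control RE lay above both other groups, but narrowly: its lowest value was 110.4 CPM, and the highest of NP was 109.6. A Fkbp5 UMI was seen in 17.6% of endothelial nuclei, so each of these values rests on few nuclei. The log2 fold change was 0.91 ± 0.32 against NP (adjusted p = 0.999) and -1.0 ± 0.36 for stress RE against control RE (adjusted p = 0.483), both from edgeR. In vascular leptomeningeal nuclei the ranges were 314 to 442 CPM in control RE and 159 to 246 in stress RE, and in microglia 222 to 368 and 124 to 196, again apart. The Fkbp5 ranges of the other classes are not given here. Of 18 genes of the glucocorticoid list, 7 were tested. Zbtb16 and Fkbp5 were the 2 with an unadjusted p under 0.05 between stress RE and control RE, where 7.5% of all tested genes had one, and the median of the 7 was 0.13, against 0.04 over all genes.

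**Figure D5:**
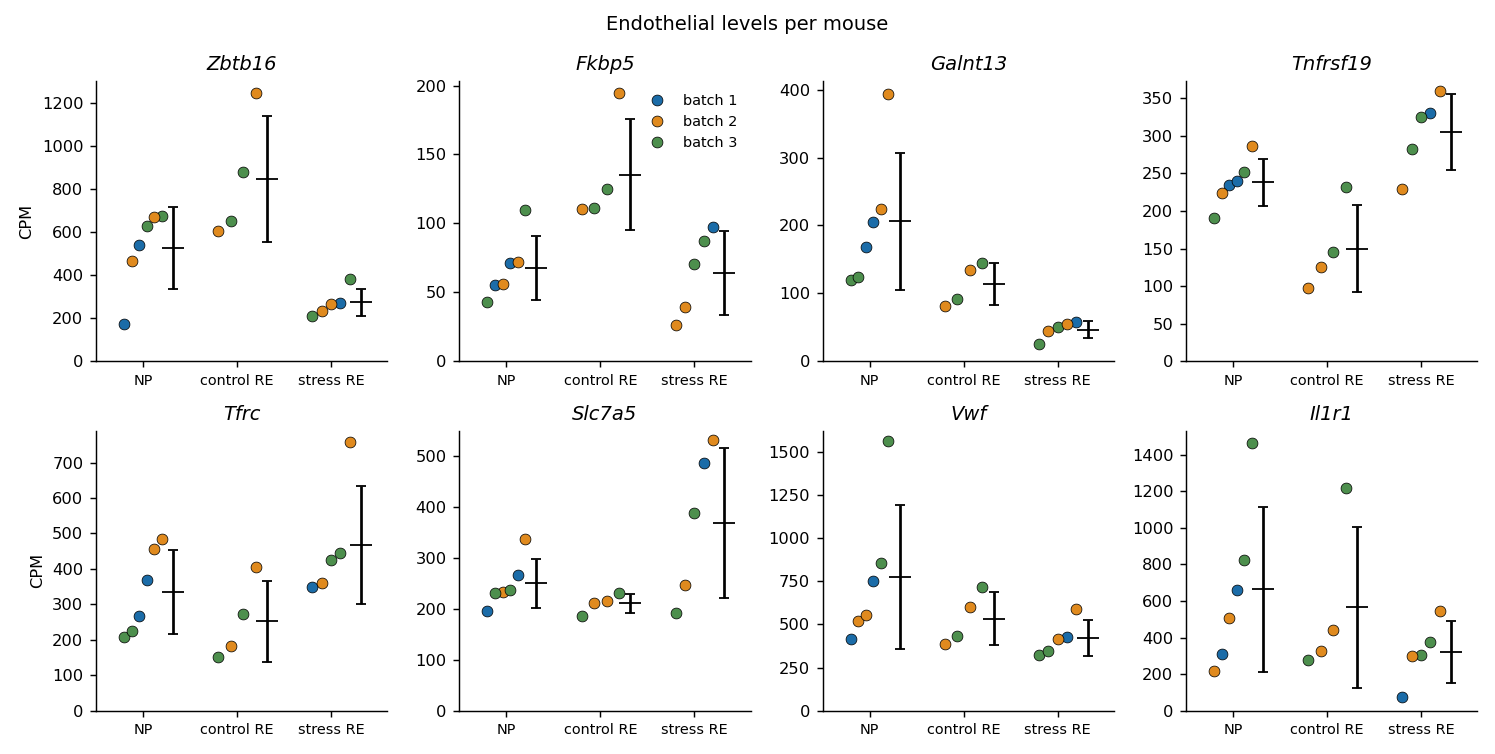
Endothelial level in CPM per mouse (points, coloured by batch) with the group mean and SD (bars) for 8 genes. Zbtb16 and Fkbp5 are higher in all 4 control RE than in all 5 stress RE mice, Galnt13 is lower in all 5 stress RE than in all 6 NP mice, and the ranges of the other 5 genes overlap between groups.

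The other 4 genes with the smallest p-values among those lower in stress RE than in control RE had higher levels in other classes than in endothelial nuclei. Dab1, the adaptor of reelin signalling, had a mean of 828 ± 309 CPM in control RE and 292 ± 118 in stress RE (-1.52 ± 0.30, edgeR adjusted p = 0.224), and DESeq2 called it, but control RE mouse 66 at 369 CPM lay among the stress RE mice. Dscaml1 was at 227 to 307 and 19.4 to 163 CPM (-1.69 ± 0.41, adjusted p = 0.318), and the guidance receptor Robo2 at 270.2 to 422 and 102 to 247 (-1.08 ± 0.26, adjusted p = 0.318). Csmd2 completed the 5 smallest p-values (-1.88 ± 0.47, edgeR adjusted p = 0.318). Dab1, Robo2 and Csmd2 were highest in excitatory neurons, and Dscaml1 in oligodendrocytic nuclei. Beside them, the neuron marker list had a median of -0.40, with 10 of 11 tested genes below 0 and 4 of them (Rbfox3, Camk2a, Grin2a and Gria1) at an unadjusted p under 0.05, against 7.5% of all tested genes. Its summed level was 8165 to 17342 CPM in control RE and 5451 to 22662 in stress RE (median 6296), and its part in these differences was not tested.

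In the other direction, some genes of the barrier and of Wnt signalling had higher mean levels in stress RE than in control RE, each short of the threshold. Tnfrsf19, a Wnt target of brain endothelium, had 97.4, 125, 145 and 232 CPM in control RE and 229, 283, 325, 330.5 and 359.8 in stress RE, with only the highest control RE mouse inside the other range (0.95 ± 0.23, edgeR adjusted p = 0.318). Notum had 13.2 to 19.2 and 37.5 to 117 CPM without overlap (1.90 ± 0.60, adjusted p = 0.45). A Notum UMI was seen in 10.2% of endothelial nuclei, so each of its values rests on few nuclei. The transferrin receptor Tfrc averaged 253 ± 114 and 468 ± 167 CPM, Slc7a5 211 ± 18.4 and 369 ± 147, and the VEGF receptor Kdr 115 ± 36.4 and 266 ± 128, all with overlapping ranges. The smallest p-values of this direction were, beside Tnfrsf19, those of the endosomal sorting gene Vps35 (1.22), the sialyltransferase St8sia4 (0.83), the secreted factor Ndnf (1.34) and Myo1e (0.85), with edgeR adjusted p-values of 0.318 to 0.431 and no overlap of the groups. Vps35 was higher in microglia (82.2 against 78.0 CPM in endothelial nuclei) and Ndnf in vascular leptomeningeal nuclei (190 against 164). St8sia4 and Myo1e were highest in endothelial nuclei.

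By list, 14 of 15 tested junction genes, 16 of 17 solute carriers, all 6 receptors, 12 of 16 Wnt genes, 12 of 13 basement membrane genes and 14 of 17 endothelial transcription factors had a positive log2 fold change in stress RE against control RE. The medians were 0.30, 0.35, 0.40, 0.32, 0.34 and 0.31, against 0.04 over all genes, and 2, 4, 2, 5, 3 and 2 of their genes had an unadjusted p under 0.05 (Ctnnb1 in both the junction and the Wnt list), where 7.5% of all tested genes did. Flt1 itself had a log2 fold change of 0.42, and the 16 genes of the endothelial list a median of 0.38. As the rule set minimum counts for its 4 genes, which are in that list, these values are no support for the other lists. Function lists with a gene of the rule, as the VEGF, angiopoietin and BMP list with Flt1, draw on it too. Of the other rule genes, Slco1a4 is a carrier and Cldn5 a junction gene. The neuron, astrocyte (-1.0) and oligodendrocyte (-0.24) lists had medians below 0. The mural (0.69, all 7 tested genes positive), microglia (0.54, 2 tested) and choroid plexus (3.54, 2 tested) lists had medians above 0, and mixed nuclei were 25.0% in control RE and 18.2% in stress RE. The part of these in the list medians was not tested.

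The lists of vessel types had medians of different sign, with none of their genes past the adjusted threshold. The capillary list had a median of 0.80 in stress RE against control RE, with 7 of 8 tested genes positive. Slc7a5, Tfrc, Car4 and Spock2 had an unadjusted p under 0.05, where 7.5% of all tested genes had one. The arterial list was at -0.54 (7 of 8 negative, Bmx at an unadjusted p under 0.05) and the venous list at -0.51 (6 of 7 negative). Notch and ephrin genes, which include the venous gene Ephb4 beside arterial genes, were at -0.12. Leukocyte adhesion and inflammation genes (0.13), efflux pumps (0.20), caveolae (0.12), vascular tone (0.24), haemostasis (0.28), VEGF, angiopoietin and BMP signalling (0.26) and hormone receptors (0.05) had medians between these.

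Against NP, the tested venous and arterial genes had negative log2 fold changes in stress RE, none of them past the adjusted threshold. All 7 tested venous genes were negative with a median of -0.88, and Vwf, Vcam1, Adgrg6 and Il1r1 were among those with an unadjusted p under 0.05, as were 7.62% of all genes. Vwf ranged from 417 to 1558 CPM in NP (median 652) and was 323, 344, 414, 428 and 591 in stress RE (-0.88 ± 0.29, edgeR adjusted p = 0.546). Il1r1 ranged from 215 to 1462 (median 584) and was 77.8, 299.9, 303, 375 and 547 (-0.99 ± 0.46, adjusted p = 0.653). Without NP mouse 37 the log2 fold changes of Vwf and Il1r1 were -0.58 and -0.63. The leukocyte adhesion molecule Vcam1 averaged 152 ± 81.5 and 66 ± 34.8 CPM. All 8 tested arterial genes were negative too (median -0.87), whereas the capillary list was at 0.59. The share of venous-like nuclei was 24.8% in NP and 16.9% in stress RE. Without both the mixed sub-clusters and the arterial-, venous- and fenestrated-like ones, which were defined in part by these same genes, Vwf was at 0.57 and Il1r1 at 0.34, a change of sign that the choice of nuclei bears on.

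The smallest p-value between stress RE and NP was that of Galnt13 (chr2:54436317-55118309, plus strand), an enzyme that starts O-linked glycans in neural cells. It had 119.6, 123, 169, 205, 224 and 394 CPM in NP and 25.0, 44.1, 50.5, 54.7 and 58.3 in stress RE, and 81.2 to 145 in control RE, which overlapped NP. The stress RE values rest on only 3 to 7 UMIs a mouse, and the NP values on 19 to 48. Stress RE did not overlap NP, and the log2 fold change was -2.04 ± 0.36 (edgeR adjusted p = 0.064). DESeq2 called the gene, as did edgeR with batch as a term. With any 1 mouse left out the log2 fold change ran from -2.21 to -1.84. In excitatory neurons its mean was 236 ± 32.7 CPM in NP and 223 ± 18.9 in stress RE, and in mural nuclei 140.3 ± 69.2 and 89.6 ± 34.2. The adhesion genes Tenm2 (1473 ± 328 and 598 ± 228 CPM) and Cdh13 (314 ± 127 and 86.5 ± 37.6) likewise did not overlap (edgeR adjusted p = 0.194 each), while Sgcz and Ncam2 did. DESeq2 called both Tenm2 and Cdh13, and edgeR with batch as a term called Cdh13. Galnt13 and Tenm2 were highest in excitatory neurons, at 231 and 3569 CPM. The neuron list had 10 of 11 tested genes below 0 in the same comparison (median -0.13), its summed level had a median of 11154 CPM in NP and 6296 in stress RE, and the oligodendrocyte precursor list had a median of -0.56. Their part in these differences was not tested.

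Genes higher in stress RE than in NP were led by Rnf214 (1.18), the carbonic anhydrase of capillaries Car4 (1.35), the MAPK inhibitor Spred2 (0.79), St8sia4 (0.67) and Notch3 (2.18), at edgeR adjusted p-values of 0.321 to 0.469. Over all mice Car4 had 101 CPM in endothelial nuclei against 107 in mural nuclei. Rnf214 had 81.3 against 90.6 in vascular leptomeningeal and Spred2 144 against 266 in choroid plexus nuclei, while St8sia4 was highest in endothelial nuclei. Notch3 is a receptor of mural cells. The whole mural list had a median of 1.63 with all 7 tested genes positive and Notch3, Pdgfrb and Rgs5 among those at an unadjusted p under 0.05, and its summed level was 56.5 to 949.8 CPM in NP and 441 to 2585 in stress RE. Its part in the Notch3 difference was not tested. The laminin receptor Itga6 (0.71) and the collagen gene Col4a1 (0.57) led the basement membrane list, of which all 13 tested genes were positive (median 0.31).

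Control RE against NP had the fewest genes at an unadjusted p under 0.05 of the 3 comparisons (119). The 5 smallest p-values among the higher genes were those of Iqgap2 (2.00 ± 0.41, edgeR adjusted p = 0.404), Ext1, Zeb2, Prkca and Dscaml1, and among the lower genes those of Gm32647, Cdh18, Sgcz, Numa1 and Exoc6, all but Iqgap2 with an adjusted p of 0.804 or more. Ext1, which builds heparan sulphate, had 133 to 272 CPM in NP and 389 to 475 in control RE, and Zeb2 223 to 377 and 468 to 715, both without overlap. All 17 tested genes of VEGF, angiopoietin and BMP signalling, among them Flt1 of the rule, had a negative log2 fold change (median -0.29). Smad7 and Vegfc were at an unadjusted p under 0.05, as were 3.37% of all genes. Of the Wnt list, Notum, Lef1 and Tnfrsf19 were lower at that level, Lef1 with 1475 ± 265 CPM in NP and 1068 ± 289 in control RE (-0.46 ± 0.20, adjusted p = 0.999). The endothelial marker list, which includes the genes of the rule, had a median of -0.16, with 1 of 16 tested genes positive. Endothelial transcription factors were at -0.21 (1 of 17 positive), junction genes at -0.27 (2 of 15) and venous genes at -0.43 (0 of 7). The capillary list was at 0.02, and the median over all genes was -0.01. Beside these, the neuron list had a median of 0.36, the astrocyte list 0.88, the oligodendrocyte list 0.69 (all 6 tested genes positive, Mbp at an unadjusted p under 0.05) and the mural list 1.01. Zeb2 and Dscaml1 were highest in oligodendrocytic nuclei, at 2459 and 1305 CPM, and Iqgap2, Ext1 and Prkca in excitatory neurons, at 605, 522 and 1188 CPM. Of the lower genes, Gm32647 was highest in excitatory neurons (390 CPM), Cdh18 in choroid plexus (671), Sgcz in astrocytes (518) and Numa1 in microglia (128). Exoc6 was highest in endothelial nuclei. Mixed nuclei were 13.9% in NP and 25.0% in control RE. Their part was not tested.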

How the data were processed

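Single-nucleus RNA was measured in dHF punches of 15 mice, 1 library each, and separate mice were the replicates. Per the labels the authors used Cell Ranger 7.1.0 with an mm10 reference (the labels also name GRCm39), and deposited filtered matrices of UMI counts, with no removal of free RNA or doublets known for these values. Libraries held 40602582 to 96211264 UMIs. Members, gene lists and tests were chosen with earlier results of these data known.

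The UMI counts of endothelial nuclei were summed per mouse and compared in edgeR 4.0.16 (R 4.3.3, limma 3.58.1) by the quasi-likelihood test, with TMM scaling, filterByExpr, all 3 groups in 1 fit and Benjamini-Hochberg adjustment. DESeq2 1.42.0 was an alternative. The edgeR step was tested on simulated data. Sub-clusters were made with scanpy 1.11.5, and named only from marker lists. Shares were compared by exact permutation over mice (scipy 1.17.1, numpy 2.4.6, pandas 2.3.3, Python 3.11.15). Doublets were scored with Scrublet but kept. The comparison classes other than excitatory neurons had a minimum share of their own UMIs. It was added after the data were seen because sets taken by counts alone held many neuronal UMIs.

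Genes named were the 4 of the rule, the 30 with the highest ratio of endothelial to any other class at 50 CPM or more, every called gene and the 5 smallest p-values in each direction of a comparison, and of each list the called genes and the 4 with the highest CPM. Other list genes named (those with an unadjusted p under 0.05, or at 0 UMIs, and a few receptors) were chosen after their values were seen. The alternatives were another scaling or tool, no filter, a batch term, fewer nuclei, stricter members and leaving out each mouse. Single values of some list genes are not reported here.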

Additional observations from a re-analysis of the deposited data

Results flagged for a closer look

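In 9 of 201 groups of values tested, 1 mouse lay far from the others of its group by Dixon's criterion, which chance alone meets in about 5% of groups. Values are endothelial CPM. In NP, Gm32647 was 208 in mouse 63 (108 to 131 in the others), Vps35 was 107 in mouse 31 (64.1 to 77.8) and Notch3 was 35.5 in mouse 31 (8.01 to 17.9). In control RE, Vps35 was 16.2 in mouse 88 (47.6 to 52.8), Dab1 was 369 in mouse 66 (927 to 1039) and Vcam1 was 98.8 in mouse 66 (146 to 154). In stress RE, Spred2 was 253 in mouse 70 (164 to 181), Vegfc was 414 in mouse 43 (106 to 194) and Tfrc was 759 in mouse 77 (349.9 to 444).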

How the results depend on the processing

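No paired analysis was possible because the replicate numbers of the groups follow accession order and mark no shared animal, litter or day. Where edgeR called 0 genes in each comparison, DESeq2 called 0, 2 and 3 (control RE against NP, stress RE against control RE, stress RE against NP), edgeR without a filter on low counts 10, 38 and 71 of 19551 genes, and edgeR with batch as a term 0, 0 and 2 (Cdh13 and Galnt13). Without nuclei that had 3% or more of their UMIs from other classes the counts were 0, 3 and 0, and the cause of these changes was not tested. Leaving out 1 mouse at a time gave 0 to 1, 0 to 2 and 0 to 8 called genes. The 8 came without stress RE mouse 90, as did the 2, and the 1 of control RE against NP without control RE mouse 66. Leaving out NP mouse 35, 37 or 73 gave 1 gene, Galnt13, in stress RE against NP, and leaving out NP mouse 27 (Zbtb16), control RE mouse 66 or stress RE mouse 75 gave 1 in stress RE against control RE.

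For the share of endothelial nuclei, the 3 differences turned to 0.0651, 0.0673 and 0.132 percentage points within batch 2. Control RE against NP also turned, without NP mouse 27, without NP mouse 37 and, to 0.0656, without control RE mouse 88, and stress RE against control RE to 0.00519 without control RE mouse 87. Over all mice left out in turn the differences ran from -0.282 to 0.0656, from -0.342 to 0.00519 and from -0.370 to -0.185. The minimum share of UMIs of the other classes was added after the data were seen. Classes taken by counts alone, the earlier setting, gave r = 0.675 between the endothelial and mural shares (adjusted permutation p = 0.0175). Among capillary-like and unnamed nuclei alone, also chosen after seeing the data and set by clusters that Vwf and Il1r1 helped to define, the log2 fold changes turned to -0.14 for Emcn in stress RE against control RE, and to 0.57 for Vwf and 0.34 for Il1r1 in stress RE against NP. Of the other values for named genes under these settings, 674 kept their direction and side of the threshold and 26 came to pass it. With 16 to 146 nuclei a mouse, low genes were not measured closely.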
